A study of Mus musculus with 2 samples.

Results

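Irf8, Spi1 and Klf4 are 3 transcription factor genes of the monocyte lineage, and they are described here across the cell classes of sorted mouse bone marrow progenitors. They were taken by symbol from a matrix of 31053 genes, in which each symbol had 1 entry. Irf8 encodes an interferon regulatory factor that directs progenitors towards monocytes and dendritic cells and away from neutrophils. Spi1 encodes PU.1, an ETS-domain factor that most myeloid and B cells need and with which IRF8 binds DNA as a partner; RUNX1 is known to bind an upstream enhancer of Spi1. Klf4 encodes a zinc finger factor that promotes monocyte differentiation.

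The cells came from hind limb marrow of C57BL/6 mice and had been sorted as Lineage-, c-Kit+ and Sca1-, a gate that holds committed myeloid, erythroid and megakaryocyte progenitors. The library labelled Runx1 KO held 7889 cells, and neither its number of mice nor the way Runx1 was deleted is given in the sources used here. The Control library held 6906 cells from the pooled marrow of 2 mice, 1 Runx1f/f and 1 Runx1f/-, so part of the Control cells carried a germline mutation on 1 Runx1 allele. Transcripts were counted as unique molecular identifiers (UMIs) with a 10x 3′ kit, and the authors had assigned every cell to 1 of 18 classes, 17 of them named by a gene. One label field speaks of embryos, against the tissue and extraction fields, which were followed. With 1 library per genotype there was no test between genotypes, and every interval below is a 95% interval that covers counting error only, not the spread between mice.

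The KO-labelled library held 145590840 UMIs (median 16092 per cell) and Control 162278272 (median 21593.5). Runx1 transcripts were more abundant in the KO-labelled library, at 361 counts per 1000000 UMIs (CPM) against 143 CPM in Control; the deleted part is not stated, so 3′ UMIs do not check the deletion. Cells of the Ly86 class, whose summed monocyte progenitor markers other than Irf8 and Klf4 stood at 1268 CPM in the KO-labelled library and 902 CPM in Control, made up 7.01% of KO-labelled cells and 19.2% of Control cells. The Pf4 class of megakaryocyte markers made up 22.6% of KO-labelled cells and 3.21% of Control cells. There were 13 cell barcodes that occurred in both libraries.

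On GRCm38, Irf8 (ENSMUSG00000041515) lies on the plus strand at chr8:120736358-120756694 with 9 exons in its longest coding transcript. Spi1 (ENSMUSG00000002111) lies on the plus strand at chr2:91082390-91115756 with 5 exons. Klf4 (ENSMUSG00000003032) lies on the minus strand at chr4:55527143-55532466, also with 5 exons. A predicted gene, Gm20388, overlaps Irf8 on the same strand and had 0 UMIs in both libraries.

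The 250 bases before the RefSeq start (GRCm38.p6) are shown for the 2 members with an entry, so that short motifs of the factors can be read beside their levels. The Irf8 window is chr8:120736108-120736357 on the plus strand and the Klf4 window is chr4:55532476-55532725 on the minus strand, both printed 5′ to 3′ in the direction of the gene. Capitals mark matches on either strand to 3 motifs: TTCNNNGAA (the interferon gamma activation site), TATAAA (the core promoter box of that name) and GGGCGG (known as the GC box), each also read as its reverse complement.
Irf8: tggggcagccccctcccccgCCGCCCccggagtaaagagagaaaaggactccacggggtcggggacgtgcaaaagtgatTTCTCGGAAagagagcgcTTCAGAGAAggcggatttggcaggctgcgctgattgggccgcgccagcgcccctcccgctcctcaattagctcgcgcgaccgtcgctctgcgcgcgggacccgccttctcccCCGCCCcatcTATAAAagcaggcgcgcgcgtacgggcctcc
Klf4: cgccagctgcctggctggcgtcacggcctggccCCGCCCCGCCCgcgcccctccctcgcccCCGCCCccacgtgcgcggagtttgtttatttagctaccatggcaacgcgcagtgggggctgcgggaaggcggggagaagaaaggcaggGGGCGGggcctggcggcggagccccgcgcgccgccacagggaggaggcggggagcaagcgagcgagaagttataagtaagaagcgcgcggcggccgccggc
The Irf8 window held 2 matches to TTCNNNGAA, the first beginning 171 bases before the start, where 7.02% of all 32851 windows of this length hold at least 1. It also held TATAAA 31 bases before the start (12.4% of windows) and 2 matches to GGGCGG (32.7%), while the Klf4 window held 4 matches to GGGCGG, a pair of them overlapping by a base, and none to the other 2 motifs. Neither window held the RUNX motif TGTGGT (14.1% of windows), the PU.1 motif GAGGAAGT (2.44%), the IRF motif of 2 GAAA runs spaced by 2 bases (2.98%), the same spacing with GGAA first (2.30%) or the KLF motif CACCC (52.0%), which says only that these letters are not in these windows. Both windows were rich in CpG, with 29 CpG and 67.2% G or C for Irf8 and 32 CpG and 74% for Klf4, against medians of 6 CpG and 52.4% over all windows.

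Each member had its own distribution over the classes, and only Irf8 and Klf4 were concentrated in the Cd74 and Ly86 classes. Irf8 was highest in the Cd74 class of Control, 56 cells, at 2305 CPM (2201 to 2412). The summed dendritic cell markers of these cells were 13564 CPM, but that list holds Cd74 itself, which names the class, and H2-Aa. Its genes Siglech, Xcr1 and Cd209a had only 65, 51 and 45 UMIs in the whole Control library. The sum therefore does not show that these cells were dendritic. The Cd74 class held only 7 cells in the KO-labelled library, too few for a level. The Ly86 class came next, at 393 CPM (383 to 403) in the KO-labelled library and 493 CPM (486 to 500) in Control. The Gstm1/Ly86 class, which shares monocyte and neutrophil progenitor markers, followed at 146 CPM in the KO-labelled library and 193 CPM in Control. The order then ran to the CD34 class of early progenitors and the Gstm1/CD63 class of neutrophil progenitors. In Control the Unannotated class at 223 CPM, the Vpreb1 class of B cell markers at 199 CPM and the Gstm1/Ly86 class had overlapping neighbouring intervals. From Fcnb downwards in the KO-labelled library, every neighbour in the order overlapped the next, between 2.83 and 4.66 CPM among classes with Irf8 UMIs.

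Spi1 did not follow the monocyte label. In the KO-labelled library it was highest in the Ltf class, 221 cells with mature neutrophil markers, at 515 CPM (487 to 544), and the Ltf class of Control (50 cells) had 409 CPM (362 to 459). In Control the Cd74 class, at 488 CPM (441 to 539), and the Ltf class could not be told apart by their intervals. A plateau followed in the KO-labelled library, where the Fcnb, Prg2, Gstm1/CD63, Ly86 and Gstm1/Ly86 classes lay between 239 and 276 CPM with overlapping neighbours. In Control the same 5 classes lay between 208 and 255 CPM, but the intervals of Gstm1/CD63 (226 to 240) and Ly86 (207 to 217) did not overlap. Spi1 was lowest in the Hba-a2 class of late erythroid cells, at 7.16 CPM in the KO-labelled library and 3.29 CPM in Control.

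Klf4 was near its detection limit outside 2 classes. The 56 Cd74 cells of Control, 0.811% of that library, held 37.5% of its Klf4 UMIs and had 264 CPM (230 to 302). The Ly86 class had 14.2 CPM (12.4 to 16.3) in the KO-labelled library and 7.71 CPM (6.84 to 8.66) in Control, and it held 66.1% of the KO-labelled library's Klf4 UMIs and 50.4% of Control's. No other class of either library with at least 20 cells passed 1.58 CPM. The Ly86 class also held 76.0% of Irf8 UMIs in the KO-labelled library and 72.1% in Control, but only 20.7% of the KO-labelled library's Spi1 UMIs and 35.0% of Control's.

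**Figure D1:**
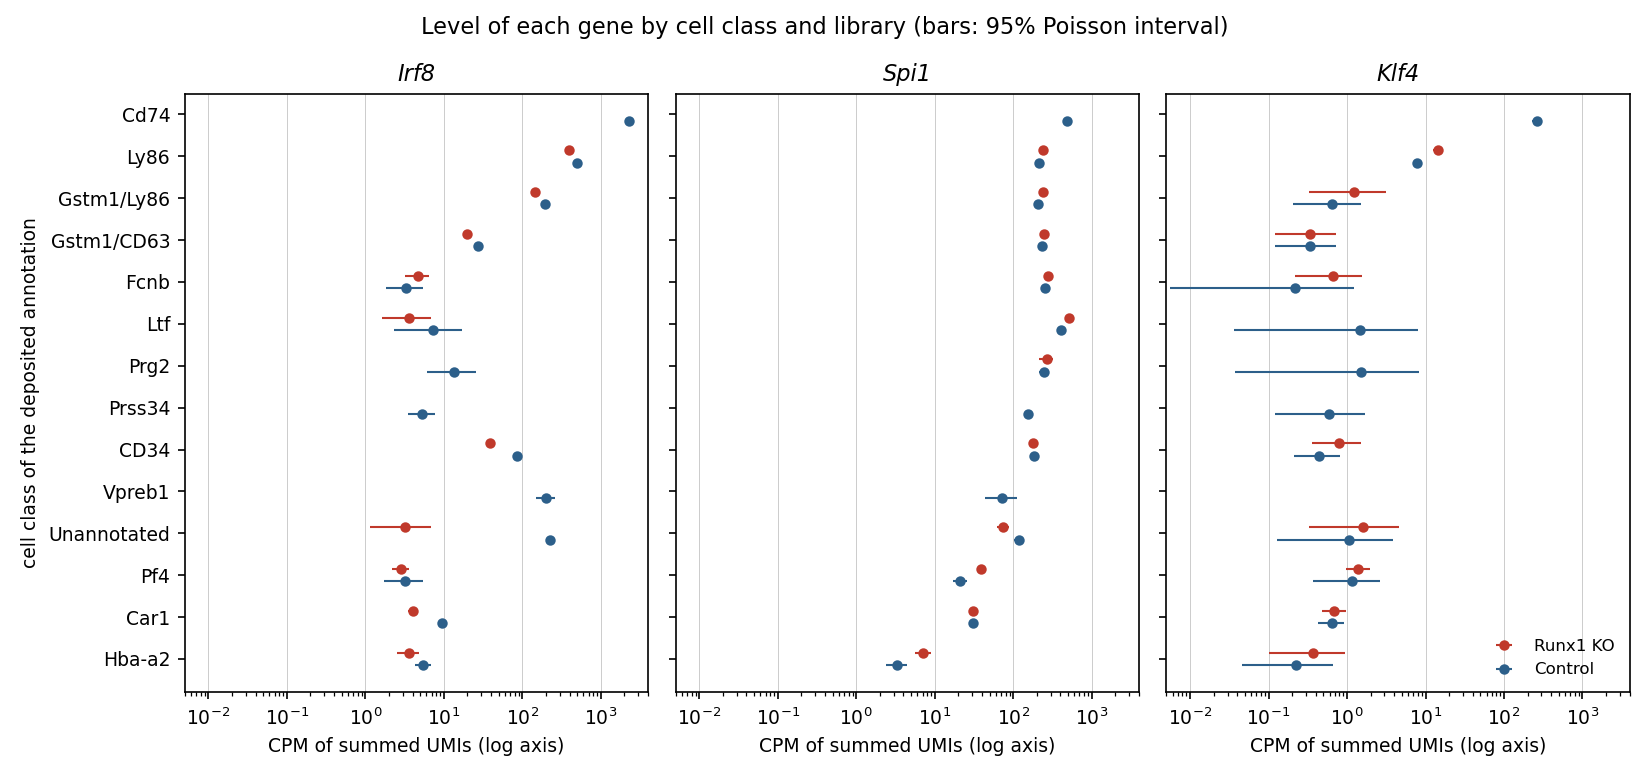
CPM of summed UMIs (log axis) for each gene in each deposited class with at least 20 cells, in the KO-labelled library (red, upper point) and Control (blue, lower point), with 95% Poisson intervals; classes with 0 UMIs have no point. Irf8 and Klf4 peak in the Cd74 class of Control at 2305 and 264 CPM and then in the Ly86 class, whereas Spi1 stays above 200 CPM over most myeloid classes.

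Over whole libraries all 3 members were lower in the KO-labelled library. Irf8 stood at 52.1 CPM (51.0 to 53.3) in the KO-labelled library and 156 CPM (154 to 158) in Control, a ratio of 0.335 (0.326 to 0.343). Spi1 stood at 118 CPM in the KO-labelled library and 138 CPM in Control, a ratio of 0.852 (0.835 to 0.869). Klf4 stood at 2.17 CPM, from 316 UMIs, in the KO-labelled library and 3.48 CPM, from 565 UMIs, in Control, a ratio of 0.623 (0.541 to 0.717). Genes counted as measured from 30 CPM in either library and 100 UMIs in total, and as called when log2 of (CPM + 10) differed by at least 1.5-fold. Of the 2 measured members, Irf8 was called lower, at a log2 ratio of -1.42, and 1.65% of 4600 measured genes were called lower. Spi1, at -0.21, was not called, and Klf4 was below the minimum.

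A whole-library level combines the share of each class with the level within it, and the class shares differed between the libraries as given above. When the class levels of the KO-labelled library were weighted by the class mix of Control, over the 17 classes that both libraries held, Irf8 came to 113 CPM against 156 CPM in Control, a ratio of 0.727. Spi1 came to 146 CPM against 138 CPM in Control (1.06), and Klf4 to 4.19 CPM against 3.48 CPM in Control (1.21). With the Ly86 class taken without its cells of own cluster 3, 1 of 20 clusters built here without the 3 members and described below, Klf4 came to 2.51 CPM in the KO-labelled library against 3.47 CPM in Control (0.724). The side on which Klf4 stood therefore turned with 37 KO-labelled cells, whereas without them Irf8 stayed below Control (0.724) and Spi1 slightly above it (1.05). Some of these classes held fewer than 10 KO-labelled cells, among them Cd74 with 7 and Siglech with 1.

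**Figure D2:**
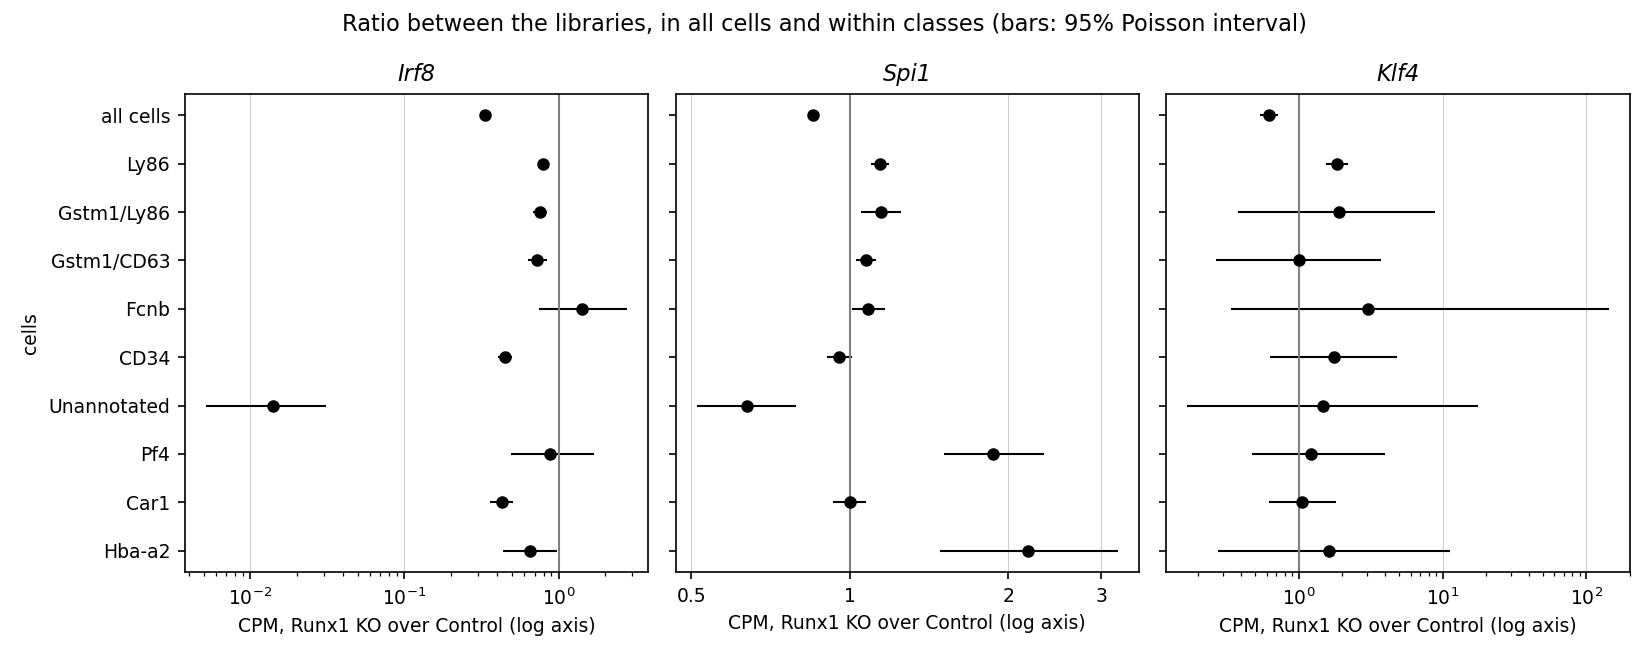
Ratio of CPM in the KO-labelled library over Control (log axis, a separate range for each gene) in all cells and in the 9 classes with at least 100 cells in each library; bars are 95% Poisson intervals and the grey line marks 1. Irf8 lies below 1 in most classes, Spi1 lies at or above 1 within all classes but CD34 and Unannotated, and Klf4 is apart from 1 within classes only in Ly86.

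Within classes, Irf8 was lower in the KO-labelled library in 7 of the 9 compared classes by intervals below 1, and the intervals of Fcnb and Pf4 included 1. One of the 7 was the Hba-a2 class of late erythroid cells, at 0.656 (0.433 to 0.981) from 39 KO-labelled and 73 Control UMIs. Of its Control UMIs 42 came from 1 cell, and without that cell the ratio was 1.53 (0.932 to 2.54), so that count falls to 6. The ratio was farthest from 1 among the named classes in CD34 and Car1. In the CD34 class, where progenitors still carry Cd34 and Kit, Irf8 had 38.3 CPM (34.8 to 42.0) in the KO-labelled library and 84.7 CPM (80.9 to 88.6) in Control, a ratio of 0.452 (0.406 to 0.502). Irf8 was 1 of 2 measured members and called lower there, as were 1.37% of 4663 measured genes. In the Car1 class of erythroid progenitors it had 4.04 CPM in the KO-labelled library and 9.46 CPM in Control (0.428, 0.360 to 0.507). Up to 40 of the 201 KO-labelled UMIs and 34 of the 425 Control UMIs of Irf8 in the Car1 class came from a single cell, and the positive share there was near the erythroid background given below with the shares. The Car1 cells of the libraries also lay in different own clusters: cluster 18 held 1882 KO-labelled and 5 Control cells, and cluster 6 held 4 KO-labelled and 1375 Control cells. In the clusters with more than 50 Car1 cells of each library the intervals of Irf8 included 1, at 0.818 (0.596 to 1.10) in cluster 0 and 0.694 (0.292 to 2.01) in cluster 16.

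Ratios nearer to 1 were found in the classes with monocyte progenitor markers, 0.797 (0.773 to 0.821) for Irf8 in Ly86 and 0.759 (0.684 to 0.842) in Gstm1/Ly86. The ratio was 0.728 (0.633 to 0.836) in the neutrophil progenitor class Gstm1/CD63, where the levels were 19.8 CPM in the KO-labelled library and 27.2 CPM in Control. None of the 2 measured members was called in the Ly86 class, where 2.19% of 4285 measured genes were called higher and 0.817% lower. The Unannotated class stood apart, with 3.16 CPM of Irf8 from 6 UMIs in the KO-labelled library and 223 CPM from 417 UMIs in Control. Its cells were not alike in the libraries: own cluster 8 held 76 of its 143 Control cells and 372 of the 417 UMIs, but 9 of its 175 KO-labelled cells and 0 UMIs. Both measured members were called lower in that class, as were 7.16% of 4875 measured genes.

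Within own clusters, which group more similar cells, the ratio of Irf8 was not always that of its class. In the CD34 class the ratio of Irf8 was 0.443 (0.351 to 0.554) in own cluster 8, led by Dntt, Ccl5 and Flt3, and 0.494 (0.398 to 0.607) in own cluster 7, led by Ccl9, Mpo and Cebpa. It was on the other side in own cluster 2, led by F13a1 and Ly86, where 16 KO-labelled CD34-class cells had 219 CPM and 185 Control cells 92.5 CPM. In the Ly86 class the ratio was 0.798 (0.772 to 0.825) in own cluster 2, which held most of the class, but 1.00 (0.913 to 1.10) in own cluster 7 and 0.382 (0.253 to 0.555) in own cluster 8, where the class had 12 KO-labelled and 153 Control cells. In the Gstm1/Ly86 class the ratio lay above 1 in own cluster 2, at 1.24 (1.08 to 1.43) from 31 KO-labelled and 92 Control cells, and below 1 in own cluster 7, at 0.712 (0.599 to 0.843). In the Gstm1/CD63 class the ratio was 0.711 (0.568 to 0.886) in own cluster 4 and 0.717 (0.587 to 0.875) in own cluster 7. Own cluster 1, led by Cpa3 and Cd200r4, held 117 KO-labelled cells of the CD34 class and 1 Control cell, so part of that class had no counterpart.

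Intervals of Spi1 lay above 1, higher in the KO-labelled library, for 6 of the 9 classes. Its interval included 1 in CD34 and Car1, and it was lower in the Unannotated class. In the Ly86 class it had 241 CPM (234 to 249) in the KO-labelled library and 212 CPM (207 to 217) in Control, a ratio of 1.14 (1.09 to 1.19). The ratio was 1.15 (1.05 to 1.25) in Gstm1/Ly86, 1.07 (1.03 to 1.12) in Gstm1/CD63 and 1.08 (1.01 to 1.17) in Fcnb. It was 1.00 (0.929 to 1.08) in Car1, but 0.621 (0.475 to 0.823) in the Car1 cells of own cluster 16. In CD34 it was 0.956 with an interval (0.906 to 1.01) that included 1. Among CD34 cells of single own clusters it was 1.11 (1.01 to 1.21) in cluster 8, 1.10 (0.967 to 1.24) in cluster 7 and 0.961 (0.769 to 1.19) in cluster 2. Larger ratios occurred where Spi1 was low. In Pf4 it had 39.3 CPM in the KO-labelled library and 21.0 CPM in Control (1.87, 1.51 to 2.34). In Hba-a2 the ratio was 2.18 (1.49 to 3.23) from 78 KO-labelled and 44 Control UMIs, found in 35 KO-labelled and 23 Control cells. Hba-a2 is 1 of the 6 classes, although it is the class that gives the background below. In the Pf4 class Spi1 was the only measured member and was called higher, as were 7.15% of 4967 measured genes. The Pf4 cells of the libraries lay in different own clusters, with 1260 KO-labelled and 0 Control cells in cluster 17 and 0 KO-labelled and 203 Control cells in cluster 5, so the ratio compares cells that were not alike. In the Unannotated class it had 74.7 CPM in the KO-labelled library and 117 CPM in Control (0.637, 0.512 to 0.790).

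Beside these values, mature neutrophil markers were higher in every one of these KO-labelled classes except Fcnb. Their summed level was 491 CPM in the KO-labelled library and 24.2 CPM in Control in the Ly86 class. In Hba-a2 it was 850 CPM in the KO-labelled library and 71.4 CPM in Control, and in Pf4 146 CPM in the KO-labelled library and 28.4 CPM in Control. All 7 of the listed markers had UMIs in both libraries in each of these 3 classes. Their part in the Spi1 ratios was not tested. In the Ly86 class, own cluster 15, led by S100a9, Camp and S100a8, held 8 KO-labelled and 0 Control cells. How much of the 491 CPM lay in these 8 cells was not tested.

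Shares of positive cells were taken after every cell was thinned to 5000 UMIs, which left out 346 KO-labelled and 465 Control cells with fewer. Irf8 was detected in 8.91% (8.28 to 9.57) of KO-labelled cells and 25.4% (24.3 to 26.5) of Control cells, and without thinning in 15.5% of KO-labelled cells and 37.9% of Control cells. Spi1 was detected in 32.4% (31.4 to 33.5) of KO-labelled cells and 43.2% (42.0 to 44.4) of Control cells. Klf4 was detected in 0.835% of KO-labelled cells and 1.37% of Control cells. The Hba-a2 class, which should lack all 3 genes, gave the background: 0.680% of KO-labelled and 1.47% of Control cells for Irf8, 3.06% of KO-labelled and 1.47% of Control cells for Spi1, and 0.340% of KO-labelled and 0% of Control cells for Klf4. The unthinned median depth of that class was 37146 UMIs in the KO-labelled library and 51294.5 in Control, against 26441 and 28550.5 in the Ly86 classes of the KO-labelled library and Control. A count of 0 in the 272 Control cells allows a share of up to 1.10%. In the Hba-a2 class 42 of the 73 Control Irf8 UMIs came from 1 cell, and the Irf8 shares of Fcnb, Car1 and Pf4, between 0.976% and 3.00% over both libraries, were near the background.

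Within the CD34 class the share of Irf8-positive cells differed as well: 9.88% (7.71 to 12.4) were positive in the KO-labelled library and 23.2% (20.6 to 25.9) in Control. In the Ly86 class most cells were positive in both, 78.2% (74.5 to 81.6) in the KO-labelled library and 82.4% (80.2 to 84.5) in Control, and the upper end of the distribution lay further apart. Cells with at least 5 thinned Irf8 UMIs made up 7.95% of KO-labelled and 16.2% of Control cells of that class. For Spi1 the class ran the other way, with 69.5% (65.4 to 73.4) positive in the KO-labelled library and 62.8% (60.1 to 65.5) in Control.

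**Figure D3:**
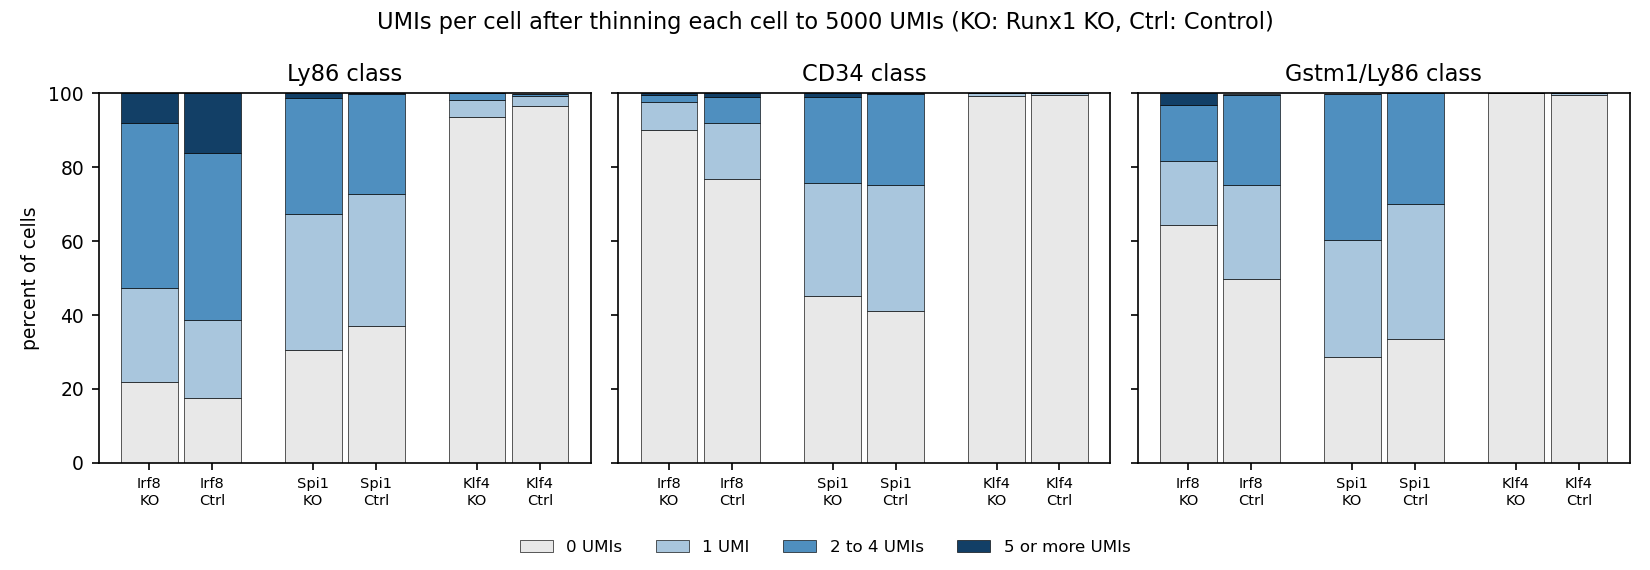
Percent of cells with 0, 1, 2 to 4, or 5 or more UMIs of each gene after thinning each cell to 5000 UMIs, in the Ly86, CD34 and Gstm1/Ly86 classes, with the KO-labelled bar left of its Control bar. The Irf8-positive part of CD34 is 9.88% of KO-labelled and 23.2% of Control cells, and the darkest Irf8 segment of Ly86 is 7.95% of KO-labelled and 16.2% of Control cells.

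Klf4 was the member with the highest ratio in the Ly86 class, 1.85 (1.54 to 2.22), and that ratio rested on 37 cells. These were the Ly86-class cells of own cluster 3, which held only 4 Control cells of the class. Over all 46 KO-labelled and 12 Control cells of that cluster, from any class, the leading genes were Cxcl12, Lgals3, Lpl, Lyz2, Fn1 and S100a4. The 37 KO-labelled cells held 112 of the class's 209 Klf4 UMIs (53.6%), at 215 CPM (177 to 258), and 52.8% of the 36 that could be thinned were Klf4-positive. They had 0 Kit UMIs, although the sort was for c-Kit+ cells, and 93.8 CPM of the progenitor granule gene Mpo, against 44.0 CPM of Kit and 3967 CPM of Mpo in the KO-labelled cells of own cluster 2. Lyz2, the lysozyme gene of mature myeloid cells, had 25306 CPM in them. Of the macrophage markers, C1qa had 0 UMIs in them, C1qb 8 and C1qc 1. For C1qb this was 15.3 CPM, against 0.185 CPM in the KO-labelled cells of own cluster 2. The other listed macrophage markers, Adgre1 and Vcam1, were not counted in the 37 cells. With them included, the summed macrophage markers of the whole class were 9.81 CPM in the KO-labelled library and 6.11 CPM in Control.

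In the remaining 516 KO-labelled and 1322 Control cells of the class, Klf4 stood at 6.85 CPM (5.56 to 8.36) in the KO-labelled library and 7.66 CPM (6.80 to 8.61) in Control, with overlapping intervals. The positive share was 3.17% of KO-labelled cells and 3.49% of Control cells, where the whole class had 6.47% (4.55 to 8.88) in the KO-labelled library and 3.48% (2.53 to 4.66) in Control. In own cluster 2 alone, Klf4 had 8.90 CPM in the KO-labelled library and 10.1 CPM in Control. Spi1 and Irf8 depended little on these cells: without them Spi1 had 234 CPM in the KO-labelled library and 212 CPM in Control, and Irf8 391 CPM in the KO-labelled library and 494 CPM in Control.

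**Figure D4:**
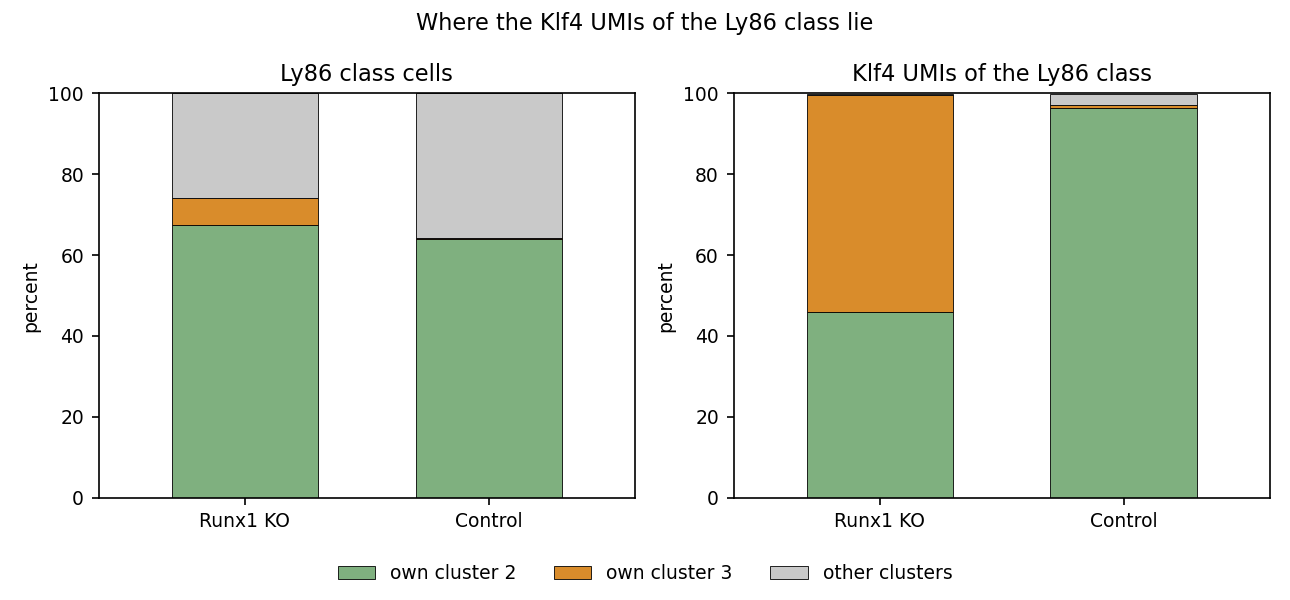
Percent of the Ly86-class cells (left) and of their Klf4 UMIs (right) that lie in own cluster 2, own cluster 3 and the other own clusters, in the KO-labelled library and Control. The 37 KO-labelled cells of own cluster 3 hold 53.6% of the class's Klf4 UMIs in that library, while own cluster 2 holds 96.5% of them in Control.

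Co-detection of Irf8 and Spi1 in the Ly86 class was close to the product of the single shares. Both genes were found in 53.0% of KO-labelled cells and 51.7% of Control cells, where the products of the single shares were 54.3% in the KO-labelled library and 51.8% in Control. Cells with UMIs of all 3 members numbered 23 in the KO-labelled library, all of them in the Ly86 class. In Control they numbered 61, of which 33 were in the Ly86 class and 26 in the Cd74 class, with 1 each in CD34 and Gstm1/Ly86. Among Cd74 cells of Control all 3 were found together in 51.0% (26 of 51). All 31 Klf4-positive cells were Irf8-positive, where 96.1% of all thinned Cd74 cells of Control were.

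Most Klf4-positive cells of the Ly86 class also had Irf8. Of 35 Klf4-positive KO-labelled cells, 77.1% (59.9 to 89.6) had Irf8, and of 43 Klf4-positive Control cells, 95.3% (84.2 to 99.4), with overlapping intervals. Over all thinned cells of the class Irf8 was found in 78.2% (74.5 to 81.6) of KO-labelled and 82.4% (80.2 to 84.5) of Control cells. The KO-labelled share was thus near that of its class, and the Control interval just overlapped that of its class. Of the 35 Klf4-positive KO-labelled cells, 19 belonged to own cluster 3, and without that cluster 13 of 16 KO-labelled cells and 41 of 43 Control cells had Irf8. Klf4 was found in 6.78% (2.97 to 12.9) of Irf8-negative KO-labelled cells and in 0.922% (0.112 to 3.29) of Irf8-negative Control cells, and without own cluster 3 in 2.68% (0.556 to 7.63) of the KO-labelled and 0.930% of the Control ones. The summed level of the 20 monocyte and macrophage target genes was 12986 CPM in Klf4-positive and 3936 CPM in Klf4-negative KO-labelled cells of the class, and 4908 CPM in Klf4-positive and 2890 CPM in Klf4-negative Control cells. Without own cluster 3 the sum was 6576 CPM in the 16 Klf4-positive and 3284 CPM in the Klf4-negative KO-labelled cells, against 4908 CPM in Klf4-positive and 2873 CPM in Klf4-negative Control cells. For Irf8 the same sums were 4827 CPM in positive and 3436 CPM in negative KO-labelled cells, and 3103 CPM in positive and 2303 CPM in negative Control cells. Neutrophil granule genes ran the other way with Irf8, at 14687 CPM in positive and 15769 CPM in negative KO-labelled cells and at 10786 CPM in positive and 13674 CPM in negative Control cells. All cells of a library share their source, so these are descriptions of 2 libraries.

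The genes most like Irf8 and Spi1 were ranked over 20 sums of a class and library, those with at least 100 cells. The measure was the Pearson correlation of log2 of (CPM + 10) among 6346 genes. The 2 libraries shared the annotation but differed in depth. Nearest to Irf8 were Rasa4 (0.977), Ly86 (0.974), Fgd2 (0.953) and Fbxw4 (0.938). Nearest to Spi1 were Pstpip1 (0.980), Tcn2 (0.971), Tm6sf1 (0.962) and Gsdmd (0.961). No gene stood in both lists, and the correlation of Irf8 with Spi1 was 0.424. Klf4 was at or below 1.58 CPM in 18 of the 20 sums and higher only in the 2 of the Ly86 class, so likeness to it would rest on these 2 sums and no ranking is given. Ly86, which encodes a partner of the lipopolysaccharide-related receptor RP105, had 5.85 CPM in the KO-labelled library and 26.0 CPM in Control in the CD34 class. Both values are among the 20 sums that gave the ranking, so they are not a separate observation. In the Ly86 class this gene had 201 CPM in the KO-labelled library and 212 CPM in Control.

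Families of the members differed in whole libraries mainly through single genes. In the IRF family, 4 of 9 genes were measured, with a median log2 ratio of 0.14 against 0.00 over all measured genes. Irf8 was the 1 called, on the lower side, as were 1.65% of all measured genes. Irf2 was at 0.39, Irf9 at 0.32 and Irf3 at -0.05. In the ETS family, 6 of 14 were measured, with a median of 0.20, and 2 were called higher, which 4.28% of all measured genes were. Those were Fli1, a factor of megakaryocytes, with 135 CPM in the KO-labelled library and 64.9 CPM in Control, and Elf1, with 215 CPM in the KO-labelled library and 125 CPM in Control. Within the Ly86 class Fli1 was at 49.5 CPM in the KO-labelled library and 52.1 CPM in Control, and Elf1 at 128 CPM in the KO-labelled library and 134 CPM in Control. In the KLF family 3 of 14 were measured and none was called, with Klf1, the erythroid factor, at -0.35. Of 10 measured partner and opposing regulators, Runx1 was called higher and Cebpa lower, beside 4.28% and 1.65% of all measured genes. Cebpa, a factor that granulocyte and monocyte progenitors need, had 29.5 CPM in the KO-labelled library and 64.8 CPM in Control. In the CD34 class Cebpa was at 64.0 CPM in the KO-labelled library and 111 CPM in Control, and in the Ly86 class at 66.8 CPM in the KO-labelled library and 83.0 CPM in Control.

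Of the monocyte and macrophage target genes, more were called lower over the whole KO-labelled library and more were called higher within the Ly86 class. Over all cells 9 of 20 were measured, with a median log2 ratio of -0.34; 3 were called lower and 0 higher, beside 1.65% and 4.28% of all measured genes. The other 6 lay between -0.36 (Cst3) and 0.09 (Ctsc). The 3 called lower were Ly6c2, a surface antigen of inflammatory monocytes, Ly86 and Ms4a6c. Ly6c2 had 49.5 CPM in the KO-labelled library and 170 CPM in Control. Ly86 had 23.4 CPM in the KO-labelled library and 61.8 CPM in Control, and Ms4a6c 75.2 CPM in the KO-labelled library and 144 CPM in Control. In the Ly86 class 15 were measured, with a median of 0.44 against 0.00 over all measured genes; 6 were called higher and 1 lower, beside 2.19% and 0.817% of all measured genes. The galectin gene Lgals3 had 119 CPM in the KO-labelled library and 6.14 CPM in Control. Cybb, a subunit of the phagocyte oxidase, had 67.3 CPM in the KO-labelled library and 19.3 CPM in Control, and the protease gene Ctsc had 135 CPM in the KO-labelled library and 49.9 CPM in Control. The chemokine receptor gene Cx3cr1 was called lower, at 11.7 CPM in the KO-labelled library and 30.4 CPM in Control. Without the cells of own cluster 3, 14 were measured, the median was 0.13, and 3 were called higher and 2 lower (1.76% and 0.797% of 4265 measured genes). The 2 called lower were Cx3cr1 (-0.97) and Ly6c2 (-0.75). Lgals3 then fell below the minimum, at 22.1 CPM in the KO-labelled library and 5.52 CPM in Control, a log2 ratio of 1.05 in place of 3.00.

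**Figure D5:**
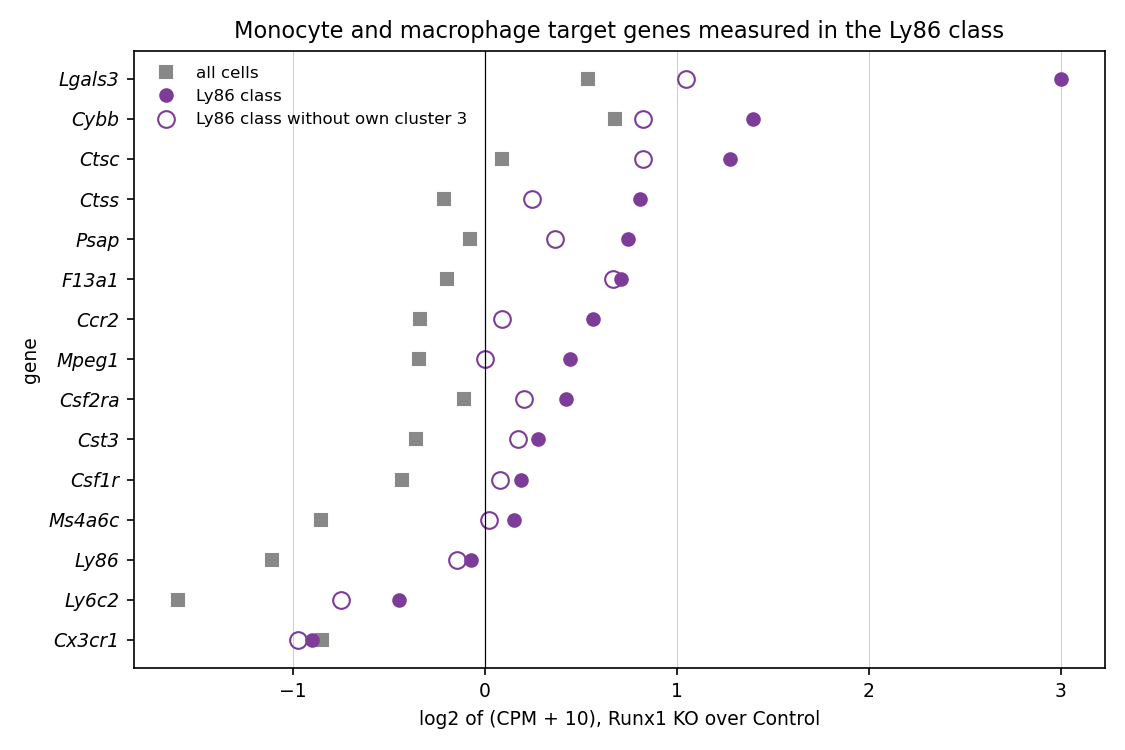
Log2 ratio of (CPM + 10), KO-labelled library over Control, of the 15 monocyte and macrophage target genes measured in the Ly86 class, over all cells (squares), in the Ly86 class (filled circles) and in that class without own cluster 3 (open circles). The class medians are 0.44 with and 0.13 without these cells, the latter without Lgals3, which is below the minimum there although its open circle is drawn. The squares lie left of the filled circles for every gene but Cx3cr1, whose points nearly coincide.

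Single antigen presentation and dendritic cell genes were called lower, and part of the neutrophil granule genes were called higher. Of 3 antigen presentation and dendritic cell genes measured over all cells, the invariant chain gene Cd74 was called lower, as were 1.65% of all measured genes. Cd74 had 10.8 CPM in the KO-labelled library and 49.9 CPM in Control. Bst2 was at -0.13 and H2-Ab1 at -0.02 on the log2 scale. In the Ly86 class the receptor gene Flt3 was 1 of 2 measured genes of that list. It was called lower there, at 24.3 CPM in the KO-labelled library and 63.9 CPM in Control, as were 0.817% of all measured genes. In the CD34 class the log2 ratio of Flt3 was -1.10. Of 9 measured neutrophil granule genes, 4 were called higher over all cells: Lcn2, Camp, Ltf and Ngp, at log2 ratios between 1.39 and 2.07, beside 4.28% of all measured genes. The primary granule genes were not called, with Mpo at -0.44, Elane at -0.17, Ctsg at -0.15 and Prtn3 at -0.06. The median of that list was 0.10 over all cells (-0.15 with equal weight for every cell) and 0.56 in the Ly86 class. There Ctsg, Ms4a3 and Lcn2, of 6 measured genes, were called higher, beside 2.19% of all measured genes.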

How the data were processed

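Per the labels, progenitors were sorted from marrow and profiled with the 10x 3′ kit, version 3. The deposited matrix holds counts (UMIs per gene and cell) of 31053 genes in 14795 cells; Cell Ranger and mm10 are named in the submitters' processing notes, while versions, cell filters and class assignment were not given in the sources used here. Per the file headers, the deposited annotation gives counts of UMIs per cell (equal to the matrix in all 14795 cells), the fraction of mitochondrial UMIs, and columns of other values (library and class); the library called WT was taken as Control.

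UMIs were summed over a library or class and scaled to CPM, with exact Poisson intervals, exact binomial intervals for shares, and log2 ratios after adding 10 CPM. Ratios needed 100 cells in each library, levels 20; a count of 0 allows up to 3. Own clusters used Leiden at resolution 0.5 on 2000 variable genes, 30 components and 15 neighbours, without the members (scanpy 1.11.5). No doublet caller was run; leaving out the 5% of cells with most UMIs was an alternative. Sums and calls were tested on simulated data. Genes named were the members, up to 4 genes per list with the largest whole-library ratio, and the 4 most like each member (not given for Klf4). Genes outside this rule were chosen after their values were seen. Among them were Flt3, Lgals3, Cybb, Ctsc, Cx3cr1, Ctsg, Ms4a3, Elane, Prtn3, Lyz2, Mpo, Kit, C1qa, C1qb, C1qc and the leading genes of clusters. Sequences are from RefSeq, locations from GENCODE. Members and lists were chosen with earlier results of these data known.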

Additional observations from a re-analysis of the deposited data

Results flagged for a closer look

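Spi1 in the Unannotated class had a ratio of 0.637 of the KO-labelled library over Control, while its ratio lay above 1, with intervals above 1, in 6 other classes (Fcnb, Gstm1/CD63, Gstm1/Ly86, Hba-a2, Ly86 and Pf4). The opposite direction drew attention to it, and 1 of the 6, Hba-a2, is the background class with few Spi1 UMIs. The difference between the classes was not tested, and the Unannotated cells of the libraries lay mostly in different own clusters.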

How the results depend on the processing

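No paired analysis was possible because each genotype had 1 library, and no replicate could be left out. Over 183 alternatives for the members' log2 ratios, 170 kept the sign, 145 moved by less than the counting interval, and 6 reversed. Weighting by the class mix of Control gave -0.43 for Irf8 and reversed Spi1 (0.077) and Klf4 (0.075) over whole libraries. The same mix with the Ly86 class taken without own cluster 3 gave -0.43 for Irf8, a reversed 0.062 for Spi1 and -0.11 for Klf4. Without the Control cell with most Irf8 UMIs, Irf8 in Hba-a2 reversed to 0.14. Both were chosen after seeing the data. A pseudocount of 1 CPM gave -1.56 for Irf8 and -0.50 for Klf4 over whole libraries, -1.13 for Irf8 in CD34 and 0.81 for Klf4 in Ly86. Equal weight for every cell gave -1.69 for Irf8, -0.27 for Spi1 and -0.19 for Klf4 over whole libraries, 0.27 for Spi1 and 0.71 for Klf4 in Ly86, 0.76 for the target gene median in Ly86, and a reversed neutrophil granule median (-0.15). Leaving out the 5% of cells with most UMIs gave -1.59 for Irf8, -0.28 for Spi1, -0.19 for Klf4 and -0.41 for the target gene median over whole libraries, and -1.17 for Irf8 in CD34.

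Within own cluster 2, the one with most cells of the class in both libraries, the Ly86 class gave 0.10 for Spi1 and a reversed -0.091 for Klf4; such a value was not run for classes with no own cluster of at least 50 cells per library. Without own cluster 3, chosen after seeing the data, Klf4 reversed to -0.068, its ratio of positive shares was 0.908 and the target gene median was 0.13. A minimum of 20 UMIs gave -0.20 for the whole-library target gene median and reversed the IRF family (-0.0017 over whole libraries, 0.059 in Ly86) and the antigen presentation list in Ly86 (0.017). The ratio of Irf8-positive shares was 0.409 both at 10000 UMIs and without thinning, and that of Spi1 was 0.800 without thinning. Median-of-ratios scaling shifted log2 ratios by at most 0.05 in any class. Causes were not tested. Klf4 outside Ly86 and Cd74 rested on few UMIs, and differences there were not detectable at this depth.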
